A study of Mus musculus with 19 samples.

Results

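Bile duct cells (cholangiocytes) add bicarbonate, chloride and water to bile, and 8 genes of that machinery were followed across 3 populations of mouse hepatocytes. The genes were chosen by name for their role: the secretin receptor Sctr and the bile acid receptor Gpbar1, the chloride channels Cftr and Ano1, the chloride/bicarbonate exchanger Slc4a2, the water channel Aqp1, and the sodium-coupled uptake transporters Slc5a1 (glucose) and Slc10a2 (bile acids). All 8 were found among the 35274 gene identifiers of the deposited tables.

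Every animal had the genotype OPN-CreERT2;Rosa26R-mT/mG, a tamoxifen-inducible Cre recombinase under osteopontin (OPN) control with a reporter that Cre switches from red tdTomato to green fluorescence. Chronic injury had been set up in the livers behind 2 of the populations: GREEN, whose hepatocytes the labels name DR-derived without spelling DR out, and RED, the native hepatocytes that kept tdTomato. The CTL population, also native, came from healthy livers. The titles number 5 biological samples per population. The labels used here do not state age, sex, the injury agent or which samples share an animal. Osteopontin is made by bile duct cells, and the reporter records only that Cre acted in a cell or in an ancestor of it. Because these are bulk libraries, fewer cells of a type and less RNA per cell cannot be told apart.

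In bile ducts, secretin acts through its receptor and cAMP to open Cftr in the apical membrane. Chloride that leaves through Cftr or through the calcium-activated channel Ano1 returns in exchange for bicarbonate through Slc4a2, and water follows through Aqp1. Slc5a1 and Slc10a2 work in the opposite direction, taking up glucose and bile acids from duct bile, and Gpbar1 senses bile acids on the same cells. Hepatocytes use a different set of pumps and carriers to make the primary bile, although they too carry Slc4a2, while Aqp1 is also a gene of blood vessel endothelium and red blood cells.

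The promoters of 3 of the genes are shown because these genes took different courses in the data. Cftr and Slc5a1 were much higher in GREEN than in RED and CTL, and Slc10a2 did not pass the test in any comparison. The sequences are from RefSeq on GRCm38.p6, read 5′ to 3′ on the strand of the gene, and end at the base before the GENCODE start of the gene. They cover chr6:18170437-18170686 (plus strand), chr5:33103969-33104218 (plus strand) and chr8:5105352-5105537 (minus strand). Capitals mark CG pairs in Cftr and Slc5a1. In Slc10a2 they mark a match to the HNF1 core, which is TTAAT and ATTAA around any 1 base, searched on both strands (the core reads the same on both).
Cftr: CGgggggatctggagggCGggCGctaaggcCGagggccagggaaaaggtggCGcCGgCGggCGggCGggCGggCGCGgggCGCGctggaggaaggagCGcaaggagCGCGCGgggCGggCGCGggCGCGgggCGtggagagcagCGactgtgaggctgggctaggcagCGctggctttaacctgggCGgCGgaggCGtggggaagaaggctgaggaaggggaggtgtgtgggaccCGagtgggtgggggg
Slc5a1: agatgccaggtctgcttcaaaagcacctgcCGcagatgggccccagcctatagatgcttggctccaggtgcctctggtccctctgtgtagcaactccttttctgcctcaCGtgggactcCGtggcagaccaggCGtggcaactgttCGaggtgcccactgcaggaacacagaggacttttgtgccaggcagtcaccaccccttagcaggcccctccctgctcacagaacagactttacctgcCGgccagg
Slc10a2: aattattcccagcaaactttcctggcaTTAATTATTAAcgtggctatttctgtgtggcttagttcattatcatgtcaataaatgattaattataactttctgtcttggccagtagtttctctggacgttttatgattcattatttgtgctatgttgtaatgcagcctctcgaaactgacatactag
Base composition and motifs were taken over the 250 bases before each RefSeq start. These windows lie outside the GENCODE gene for Cftr, Slc5a1 and Aqp1, partly inside it for Slc10a2 (64 bases) and Gpbar1 (50 bases), and wholly inside it for Slc4a2 and Ano1, where the RefSeq start is a later one. The Cftr promoter was made up of G and C to 76.4%, a higher share than in 97.0% of the 32851 RefSeq promoters, and held 30 CG pairs. Slc5a1 had 60.0% and 6 CG pairs, the median number over all promoters. Slc10a2 had 34.4%, and 4.3% of promoters were lower. The other genes matched to a promoter were Ano1 (72.0%), Slc4a2 (69.2% and 61.2% at 2 starts), Aqp1 (62.0%) and Gpbar1 (44.8%), against a median of 52.4%. The genes high in GREEN thus ranged widely in the base composition of their promoters. The HNF1 core lay 159 bases before the GENCODE start of Slc10a2 and was found in 38 of all promoters (0.116%), and in no other of the 7 secretion genes matched to a promoter. The cAMP response element TGACGTCA (1.55% of all promoters) and the TATA box TATAAA (12.4%) were in none of the 7.

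Levels are given as CPM, estimated counts set to a common library size after scaling by TMM (trimmed mean of M values). Each population had 2 libraries of experiment 1, made with a poly(A) kit, and 3 of experiment 2, made with a kit that removes ribosomal RNA. GREEN 4, GREEN 5, RED 1, RED 5, CTL 3 and CTL 4 were of experiment 1. Total counts were 22442607 to 34216824 per library in experiment 1 and 38061859 to 44177627 in experiment 2. The samples carried hepatocyte RNA throughout: 12 hepatocyte markers, Alb among them, summed to 33570 to 75460 CPM in GREEN, 70820 to 113600 CPM in RED and 102100 to 168000 CPM in CTL, and none of the 12 was at 0 throughout a group. GREEN libraries fell into levels that differed widely. The 12 biliary markers (Krt19, Epcam and Sox9 among them) summed to 731.5, 910.0, 3537, 8924 and 4729 CPM in GREEN 1 to GREEN 5, to 166.4 to 538.1 CPM in RED and to 116.1 to 537.0 CPM in CTL. GREEN 3, GREEN 4 and GREEN 5 had the highest biliary sums, and the calls of GREEN over RED are also given without these 3 libraries. GREEN 3 (experiment 2) and GREEN 4 (experiment 1) carry the same code in their library names, and the labels do not say whether they are 1 animal or sample. If they are, GREEN has 4 independent samples in place of the 5 behind its means, standard deviations and p-values. Levels in GREEN 3 were 2.91 times those in GREEN 4 for Slc10a2, 0.55 times for Slc5a1 and 0.4 times for Aqp1. Samples sequenced in both experiments gave 0.68 to 0.93, 0.92 to 1.04 and 0.5 to 0.61 times. For Slc4a2 the ratio was 0.97 and for Ano1 0.83, inside the 0.96 to 1.04 and 0.82 to 1.32 of those samples. For Cftr it was 0.67, beside 0.51 in 1 such sample. Sctr (0.25) and Gpbar1 (3.75) had no such ratio for comparison. Whether GREEN 3 and GREEN 4 are the same sample was not tested.

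The receptor at the head of the pathway, Sctr (ENSMUSG00000026387.15, chromosome 1, 120006894 to 120063536, plus strand), was present at a low level in GREEN and close to undetected elsewhere. GREEN 1 to GREEN 5 had 0.517, 0.735, 1.53, 6.15 and 4.04 CPM, 631 counts in all. RED 1 to RED 5 had 0.0424, 0, 0.0719, 0.0478 and 0.0778 CPM, 8 counts in all, and the 5 CTL libraries had no count (a second library of CTL 5, not among the 15, had 1). Every GREEN library was above every RED library, and GREEN 4 and GREEN 5 were the highest. Sctr averaged 2.59 ± 2.43 CPM in GREEN and 0.0480 ± 0.0308 CPM in RED (SD, n = 5 each), a log2 fold change of 5.22 (standard error 0.68, edgeR quasi-likelihood test, adjusted p = 0.0012). Sctr passed the filter on low counts through its GREEN libraries, and without that filter the adjusted p was 0.00062.

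The bile acid receptor Gpbar1 (ENSMUSG00000064272.3, chromosome 1, 74278550 to 74279624, plus strand) was lower still. Its CPM were 0.331, 0.449, 0.665, 0.177 and 0.277 in GREEN 1 to GREEN 5, 0, 0.0779, 0.192, 0.119 and 0.0778 in RED 1 to RED 5, and 0, 0.0784, 0, 0 and 0.0295 in CTL 1 to CTL 5. These values rest on 95, 18 and 4 counts per group. Unlike Sctr, Gpbar1 was highest in GREEN 3, and GREEN 4 lay below RED 3. The log2 fold change of GREEN over RED was 2.03 (standard error 0.58, adjusted p = 0.037). That call was kept in 13 alternative fits and lost in 14, among them those without GREEN 3, GREEN 4, GREEN 5, RED 1, RED 2, RED 4, RED 5 or CTL 5 (adjusted p = 0.052 to 0.097 without a single library). It was also lost without the filter on low counts (2.05, adjusted p = 0.069), which Gpbar1 passed through its GREEN libraries.

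**Figure D1:**
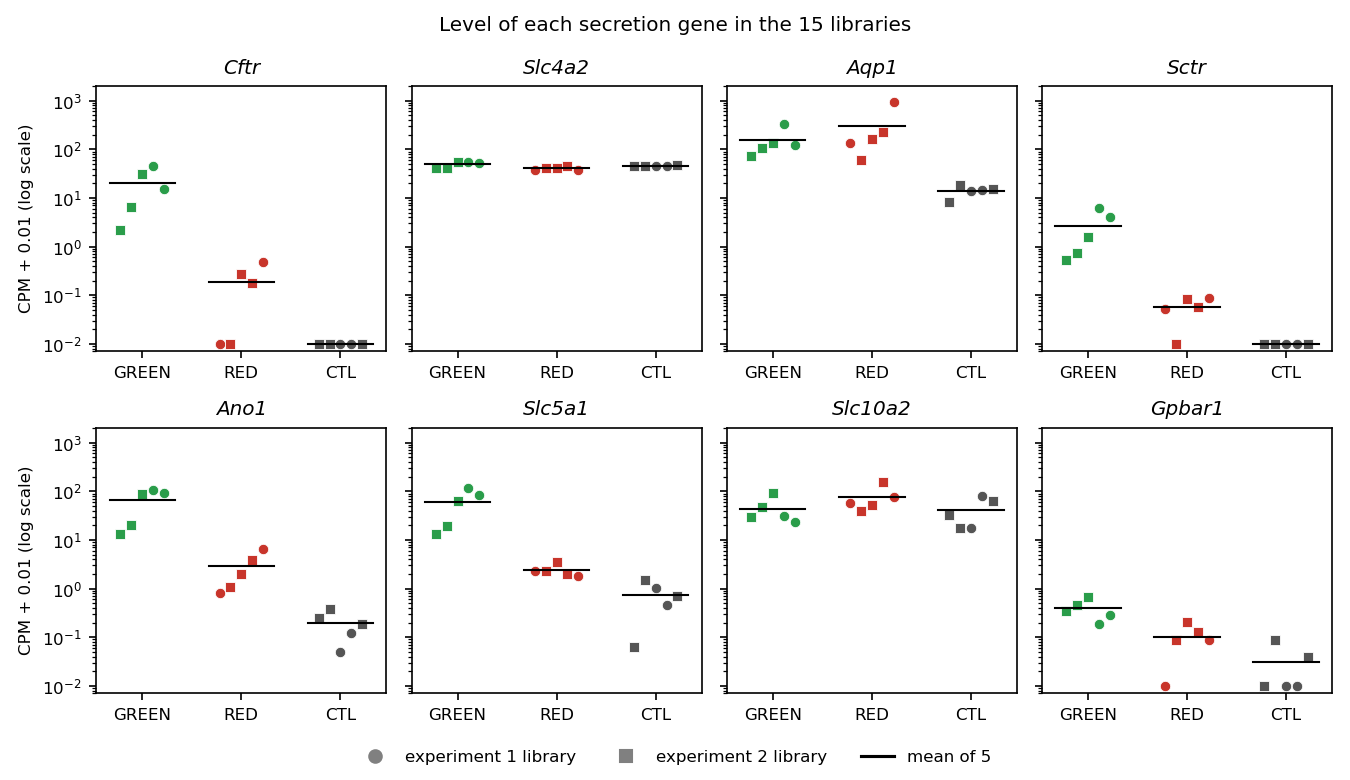
Level of each of the 8 secretion genes in the 15 libraries, as CPM + 0.01 on a log axis. Points are libraries (circles experiment 1, squares experiment 2) in the order of their numbers within GREEN, RED and CTL, and lines are means of 5. Cftr, Sctr, Ano1 and Slc5a1 have every GREEN library above every RED library, Aqp1 is low in CTL only, and Slc4a2 is nearly level.

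Both chloride channels were high in GREEN. Cftr (ENSMUSG00000041301.15, chromosome 6, 18170687 to 18322768, plus strand), the cAMP-gated channel mutated in cystic fibrosis, had 2.23, 6.51, 30.8, 45.7 and 15.6 CPM in GREEN 1 to GREEN 5. It had 0, 0, 0.263, 0.167 and 0.467 CPM in RED 1 to RED 5 and no count in CTL. No GREEN library overlapped RED or CTL, RED 1 and RED 2 were at 0 as CTL was (the experiment 1 library of RED 2 had 2 counts), and GREEN itself spanned 20.5 times from its lowest to its highest library. Means were 20.2 ± 18.0 CPM in GREEN and 0.180 ± 0.196 CPM in RED, from 5089 and 30 counts, and the log2 fold change was 6.68 (standard error 1.05, adjusted p = 0.0032). Without GREEN 3 it was 5.84 (adjusted p = 0.013). The annotation places an antisense gene, Gm15592, across Cftr, and no source used here says whether the counting used strand.

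Ano1 (ENSMUSG00000031075.18, chromosome 7, 144588549 to 144751974, minus strand) was detected in all 15 libraries. GREEN 1 to GREEN 5 had 12.97, 20.1, 90.0, 108.4 and 92.1 CPM. RED 1 to RED 5 had 0.806, 1.09, 2.01, 3.80 and 6.58 CPM, and CTL 1 to CTL 5 had 0.234, 0.366, 0.0394, 0.114 and 0.177 CPM. The 3 populations formed 3 steps with no overlap between them, which no other of the 8 genes but Slc5a1 did. Ano1 rose in GREEN over RED (log2 fold change 4.43, standard error 0.69, adjusted p = 0.0012) and in RED over CTL (3.68, standard error 0.78, adjusted p = 0.0043). The second of these did not pass in limma-voom (adjusted p = 0.083) or in experiment 2 alone (3.13, adjusted p = 0.068). Ano1 too has an antisense gene across it, Gm44930.

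The glucose transporter Slc5a1 (ENSMUSG00000011034.6, chromosome 5, 33104219 to 33162870, plus strand) had 13.3, 19.1, 64.1, 115.9 and 84.6 CPM in GREEN 1 to GREEN 5. RED 1 to RED 5 had 2.29, 2.34, 3.54, 1.96 and 1.79 CPM, and CTL 1 to CTL 5 had 0.0520, 1.46, 1.02, 0.456 and 0.708 CPM. GREEN was widely spread and RED narrow, with means of 59.4 ± 43.6 and 2.38 ± 0.688 CPM. The log2 fold change of GREEN over RED was 4.45 (standard error 0.67, adjusted p = 0.00098). Every RED library was above every CTL library, but the log2 fold change of 1.70 (standard error 0.64) did not pass (adjusted p = 0.096). It passed in experiment 1 alone (2.02, adjusted p = 0.0096), in DESeq2 (1.67, adjusted p = 0.038) and without CTL 2 (2.27, adjusted p = 0.034).

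The bicarbonate exchanger Slc4a2 (ENSMUSG00000028962.14, chromosome 5, 24423837 to 24440950, plus strand) was nearly level across the populations. Its CPM were 41.0, 42.2, 54.3, 55.9 and 51.7 in GREEN, 38.2, 41.0, 40.8, 45.1 and 38.3 in RED, and 44.9, 44.7, 44.4, 45.04 and 47.1 in CTL. GREEN 3, GREEN 4 and GREEN 5, the GREEN libraries with the highest biliary marker sums, were also the highest for Slc4a2. The log2 fold change of GREEN over RED was 0.27 (95% interval 0.06 to 0.47, adjusted p = 0.1) and of GREEN over CTL 0.11 (-0.09 to 0.32, adjusted p = 0.39). With library totals in place of TMM these were 0.72 (adjusted p = 0.015) and 0.86 (adjusted p = 0.0012), beside medians over all genes of 0.42 and 0.83 under the same scaling, so relative to other genes GREEN and CTL differed little on either scale. GREEN over RED also passed in experiment 1 alone (0.40, adjusted p = 0.038) and without GREEN 1 (0.32, adjusted p = 0.038). Fastk, on the opposite strand, overlaps Slc4a2.

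Aqp1 (ENSMUSG00000004655.5, chromosome 6, 55336432 to 55348555, plus strand) separated both injured-liver populations from healthy liver. GREEN 1 to GREEN 5 had 71.9, 107.9, 133.8, 334.1 and 120.8 CPM. RED 1 to RED 5 had 133.7, 61.1, 160.5, 221.6 and 957.1 CPM, and CTL 1 to CTL 5 had 8.32, 18.5, 13.7, 14.6 and 14.99 CPM. RED 5 stood far above all other libraries, GREEN and RED overlapped, and CTL lay below both. Aqp1 rose in RED over CTL by 4.13 on the log2 scale (standard error 0.60, adjusted p = 0.00052), and by 3.43 without RED 5 (adjusted p = 0.00072). It rose in GREEN over CTL by 3.27 (standard error 0.57, adjusted p = 0.00051). GREEN over RED gave -0.86 (95% interval -1.90 to 0.17, adjusted p = 0.28), or -0.06 without RED 5 (adjusted p = 0.94).

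The bile acid transporter Slc10a2 (ENSMUSG00000023073.2, chromosome 8, 5083219 to 5105351, minus strand) was present in all populations at overlapping levels. It had 29.0, 46.5, 90.2, 31.0 and 23.5 CPM in GREEN, 58.6, 40.1, 52.5, 157.8 and 76.0 CPM in RED, and 32.2, 17.8, 17.9, 79.0 and 62.4 CPM in CTL. Its highest library was RED 4, and among GREEN libraries it was highest in GREEN 3 and lowest in GREEN 5. The log2 fold changes were -0.84 for GREEN over RED (95% interval -1.83 to 0.16, adjusted p = 0.28), 0.85 for RED over CTL (-0.15 to 1.85, adjusted p = 0.33) and 0.01 for GREEN over CTL (-1.0 to 1.01, adjusted p = 0.99). The intervals are wide, and the libraries of each population spanned 3.84 times (GREEN), 3.94 times (RED) and 4.44 times (CTL).

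Counted together, 5 of the 8 genes rose in GREEN over RED, none fell and 3 did not pass, where 12.9% of the 16387 genes tested passed (9.68% higher and 3.22% lower). The median log2 fold change of the 8 was 3.23, beside -0.02 over all genes. In 4 of the 8 every GREEN library lay above every RED library, against 6.66% of all genes. RED over CTL had 2 of 8 higher (Aqp1 and Ano1) where 16.2% of genes passed (14.2% higher and 1.99% lower), with medians of 2.79 and 0.05, and 3 of 8 with every RED library above every CTL library (10.6% of all genes). GREEN over CTL had 6 of 8 higher where 48.1% passed (29.5% higher and 18.6% lower), with medians of 5.04 and 0.11, and the same 6 had every GREEN library above every CTL library (21.0%). The 3 genes that did not pass in GREEN over RED, Slc4a2, Aqp1 and Slc10a2, were also the 3 with 8.32 CPM or more in every CTL library. The comparisons share libraries in pairs, so their counts are not independent. With library totals, genes passing in GREEN over RED were 4289 higher and 40 lower, against 1586 and 528 with TMM, and in GREEN over CTL 10077 and 467, against 4839 and 3051. All 8 genes passed the filter on low counts. Sctr and Gpbar1 exceeded its limit of 0.258 CPM in GREEN libraries only, and Cftr in 5 GREEN and 2 RED libraries, so these genes entered the tests because they were high in GREEN. Of the 5 others, which passed the limit in at least 5 RED and CTL libraries, 2 rose in GREEN over RED (Ano1 and Slc5a1). Of the same 5, 2 rose in RED over CTL (Ano1 and Aqp1) and 3 in GREEN over CTL (Ano1, Aqp1 and Slc5a1). Without the filter 4 of the 8 passed in GREEN over RED, where 7.21% of 25631 genes did.

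Beside Aqp1, described above, 5 of the genes were higher in GREEN than in healthy liver. With the 5 GREEN libraries pooled, Cftr was at least 1061-fold higher than in CTL and Sctr at least 131.5-fold higher. These bounds take 3 counts over the CTL group as the floor. Both genes passed by edgeR (adjusted p = 0.00024 for Cftr and 7.3e-05 for Sctr). Without GREEN 4 the pooled bound was 727.6-fold for Cftr and 83.8-fold for Sctr. Ano1 rose by 8.11 on the log2 scale (standard error 0.86, adjusted p = 1.9e-05), Slc5a1 by 6.14 (standard error 0.73, adjusted p = 3.6e-05) and Gpbar1 by 3.93 (standard error 0.71, adjusted p = 0.0006). Without CTL 2, which holds 3 of the 4 CTL counts of Gpbar1, that last value was 4.95. In RED over CTL, Cftr was at least 8.96-fold higher and Sctr at least 2.39-fold higher by the same floor, and neither passed (adjusted p = 0.13 and 0.061). Cftr passed there in DESeq2 (adjusted p = 0.015), and Sctr without RED 1 or RED 2 (adjusted p = 0.046 and 0.042).

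**Figure D2:**
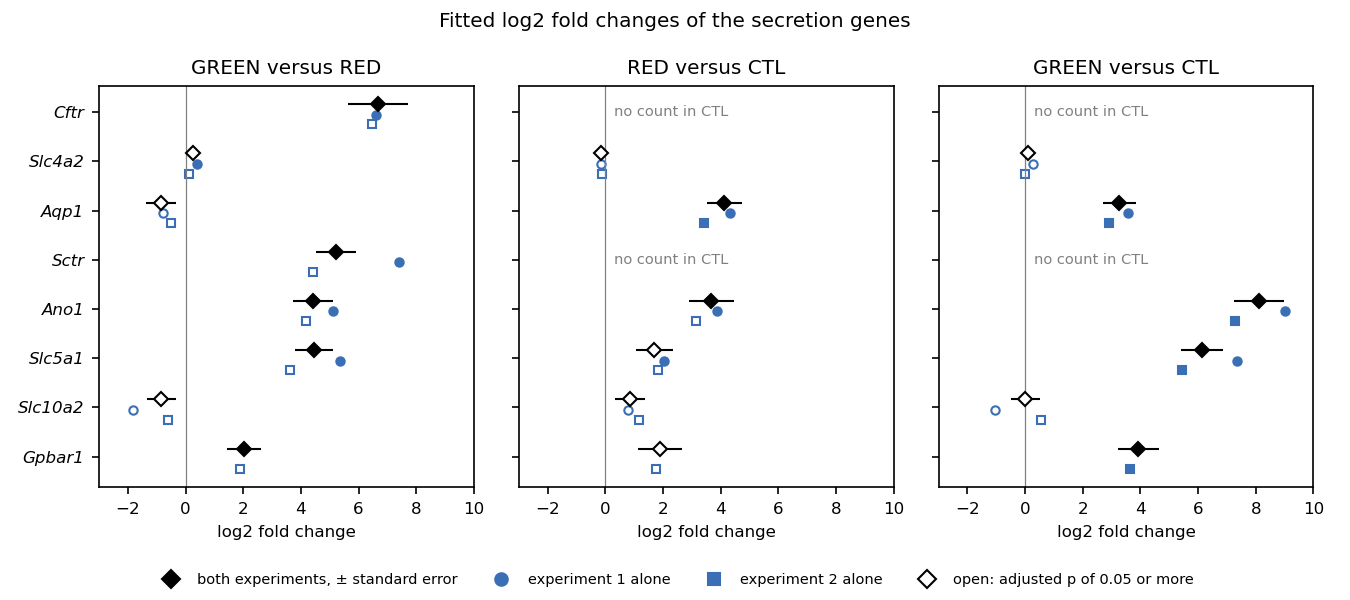
Fitted log2 fold changes of the 8 genes in GREEN versus RED, RED versus CTL and GREEN versus CTL. Black diamonds are the fit over both experiments with standard errors, blue circles experiment 1 alone and blue squares experiment 2 alone, filled where the adjusted p is under 0.05. The GREEN versus RED values of Cftr, Sctr, Ano1 and Slc5a1 are above 3.6 in both experiments but open in experiment 2, and Gpbar1 was not tested in experiment 1.

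The experiments gave the same directions for the 5 genes higher in GREEN over RED, as far as they were tested. In experiment 1 alone, with GREEN 4 and GREEN 5, the log2 fold changes were 6.62 for Cftr, 7.39 for Sctr, 5.13 for Ano1 and 5.35 for Slc5a1, all past the threshold. In experiment 2 alone, with GREEN 1 to GREEN 3, they were 6.48, 4.42, 4.16 and 3.62, with 1.87 for Gpbar1, and none passed (edgeR, adjusted p = 0.069 to 0.37), while all 5 had an unadjusted p under 0.05. With the code numbers of the library names as a replicate block, 4 passed in experiment 2 (Ano1, Cftr, Sctr and Slc5a1, adjusted p = 0.0019 to 0.021) and Gpbar1 had an adjusted p of 0.07. This blocked fit, of RED and GREEN only, was added after the data were seen, and the labels do not state the pairing. Over all genes it had 857 calls of 16507, against 77 of 16816 in experiment 2 alone without the block. Without GREEN 4 and GREEN 5 only Slc5a1 passed (3.66, adjusted p = 0.028), where 1.59% of all genes did. Without GREEN 3, GREEN 4 and GREEN 5 none passed by edgeR, and 4 had an unadjusted p under 0.05, with log2 fold changes of 4.88 for Cftr, 3.82 for Sctr, 2.51 for Ano1 and 2.72 for Slc5a1. Other tools were not run in these settings. In GREEN over CTL, 6 genes passed in each of these 3 settings. For the samples sequenced in both experiments, the experiment 2 library gave 0.50 to 0.61 times the Aqp1 CPM of the experiment 1 library, and 0.96 to 1.04 times for Slc4a2, so the level of Aqp1 is comparable only within an experiment.

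Cell type markers moved with several of these genes. Of the 12 biliary markers, 10 rose in GREEN over RED (median log2 fold change 5.77), 1 rose in RED over CTL (1.20) and 12 rose in GREEN over CTL (6.63). In GREEN over RED 7 passed without GREEN 4 and GREEN 5, 5 without GREEN 3 as well and 2 in experiment 2 alone, with medians of 5.05, 3.65 and 5.08. Spp1, the gene of osteopontin, made up 56.5% to 83.2% of their sum in GREEN, 19.6% to 70.7% in RED and 3.46% to 52.8% in CTL. The other 11 summed to 318.5, 376.3, 1186, 1504 and 1107 CPM in GREEN 1 to GREEN 5, to 123.1 to 229.5 CPM in RED and to 109.2 to 257.7 CPM in CTL. Of these 11, Cdh1 had the highest mean in each group, with 320.7 ± 162.6 CPM in GREEN, 115.5 ± 42.8 in RED and 141.7 ± 69.0 in CTL. In RED and CTL the 11-gene sum and shares of it therefore rest largely on Cdh1. Across the GREEN libraries Slc5a1 spanned 8.69 times in CPM but 1.84 times as a share of this 11-gene sum. Ano1 spanned 8.36 and 2.04 times, Cftr 20.5 and 4.33 times, and Sctr 11.9 and 3.17 times. Slc10a2 went the other way, with 3.84 times in CPM and 6.00 times as a share, and Gpbar1 with 3.75 and 10.1 times. The part of biliary marker levels in the differences between groups was not tested. As a share of the 11-gene sum, Slc5a1 had 4.19% to 7.70% in GREEN and 0.854% to 2.88% in RED, without overlap. Ano1 had 4.07% to 8.32% in GREEN and 0.487% to 4.17% in RED, where GREEN 1 lay below RED 5.

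Endothelial markers moved with Aqp1. None of the 12 passed in GREEN over RED (median -0.75), 12 rose in RED over CTL (3.81) and 12 in GREEN over CTL (2.98). They summed to 322.5 to 745.7 CPM in GREEN, to 387.7, 424.9, 797.2, 1399 and 1958 CPM in RED 1 to RED 5, and to 48.2 to 144.7 CPM in CTL, with none at 0 throughout a group. RED 5 was highest for Aqp1 and for the endothelial sum, but also for the sum of the macrophage markers described below (1673 CPM). Among RED libraries it was highest for the stellate cell and matrix sum too (1957 CPM). Within experiment 2, Aqp1 amounted to 15.1% to 20.6% of the endothelial sum in GREEN, 14.4% to 20.1% in RED and 9.18% to 15.1% in CTL. In experiment 1 the shares were 37.5% and 44.8% in GREEN, 34.5% and 48.9% in RED and 22.6% and 30.3% in CTL. The 7 erythroid markers found, the other class known for Aqp1, summed to 10.5 to 48.3 CPM in GREEN, 15.7 to 93.6 CPM in RED and 5.98 to 126.3 CPM in CTL, and none of the 5 tested passed in any comparison. Ano1 in RED also ran beside the endothelial sum, spanning 8.16 times in CPM and 1.62 times as its share. In CTL Ano1 spanned 9.29 and 3.98 times, but in GREEN, where it was high, 8.36 and 10.5 times. Of 12 stellate cell and matrix markers, 5 rose in GREEN over RED (median 0.99), 12 in RED over CTL (4.36) and 12 in GREEN over CTL (5.27), with sums of 922.3 to 2892 CPM in GREEN, 338.2 to 1957 CPM in RED and 39.05 to 86.04 CPM in CTL. Of 12 macrophage markers, 4 fell in GREEN over RED (-0.94, none with library totals), while 12 rose in RED over CTL (3.27) and 10 in GREEN over CTL (2.46), with sums of 151.6 to 572.8 CPM in GREEN, 125.7 to 1673 CPM in RED and 39.5 to 110.0 CPM in CTL. What these cell types contributed to the 8 genes was not tested.

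**Figure D3:**
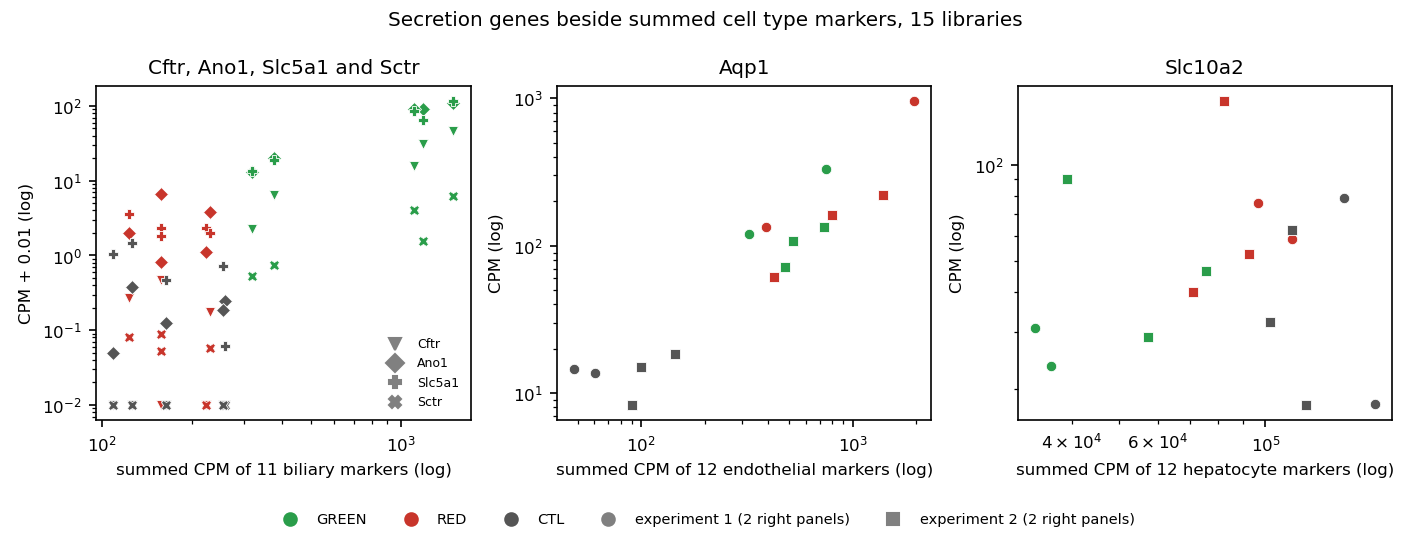
CPM of secretion genes (vertical, log axes) against summed CPM of cell type markers (horizontal, log axes) in 15 libraries, coloured by population. The left panel sets Cftr, Ano1, Slc5a1 and Sctr (CPM + 0.01) against 11 biliary markers, the middle one Aqp1 against endothelial markers, the right one Slc10a2 against hepatocyte markers. The GREEN points spread along the biliary sum from 318.5 to 1504 CPM, Aqp1 climbs with the endothelial sum up to RED 5 at 957.1 CPM, and Slc10a2 shows no order.

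Among themselves the genes fell into a tight set and loose ones. Over the 15 libraries, with the experiment effect removed, Pearson r of log2 CPM was 0.98 between Cftr and Sctr, 0.96 between Cftr and Ano1, 0.92 between Ano1 and Slc5a1 and 0.94 between Slc5a1 and Gpbar1. Aqp1 had 0.51 to 0.74 with these 5, and Slc4a2 0.39 to 0.62. Slc10a2 had between -0.09 and 0.10 with the same 5 and 0.44 with Aqp1. The libraries share groups and kits, so these values describe the set and are no test. Of all other genes tested, those most like Cftr were Ccdc92 (0.994), Ltb and Ppp2r2b (0.993 each). Those most like Sctr were Fam83b (0.993), Bend5 (0.992) and Pitpnm3 (0.991), and most like Ano1 were Glis2 (0.997), BC034090 and Col4a4 (0.994 each). Slc5a1 was most like Foxc1 (0.979), Krt23 (0.977) and Itpr3 (0.972), and Gpbar1 most like Foxc1 (0.971), Flnc (0.969) and Megf6 (0.963). Aqp1 was most like Cldn5 (0.998), the claudin of endothelial tight junctions, Adgrl4 and Plxnc1 (0.997 each). The best matches were weaker for Slc4a2, with Nedd4 (0.956), Ube2e3 (0.943) and Twsg1 (0.937), and for Slc10a2, with Srp19 (0.922), Ttpal (0.918) and Klhdc4 (0.904).

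Per kilobase of exon, which allows levels of different genes to be compared, Aqp1 was the most abundant of the 8 in GREEN (58.5 ± 39.4 CPM per kb) and in RED (116.8 ± 140.1, or 54.9 ± 25.3 without RED 5). Within experiment 1 it had 86.6 in GREEN and 207.6 in RED, and within experiment 2 39.8 and 56.2, the highest of the 8 each time. In GREEN it was followed by Slc5a1 (14.5), Slc10a2 (10.6), Ano1 (10.4), Slc4a2 (5.89), Cftr (2.60), Sctr (1.29) and Gpbar1 (0.353), and the ranges of all neighbours in that order overlapped. In RED the order was Aqp1, Slc10a2 (18.5), Slc4a2 (4.89), Slc5a1 (0.581), Ano1 (0.457), Gpbar1 (0.0868), Sctr (0.0238) and Cftr (0.0231). There Slc10a2, Slc4a2 and Slc5a1 were separated without overlap and the other neighbours were not. In CTL, Slc10a2 (10.1), Slc4a2 (5.43) and Aqp1 (5.33) stood above a gap, followed by Slc5a1 (0.181), Ano1 (0.0298) and Gpbar1 (0.0201). By this exon length the apical bile acid transporter Slc10a2 had the highest mean of the 8 in healthy hepatocyte samples. Its range there overlapped those of Slc4a2 and Aqp1. With the mean transcript length in place of the union of exons, Slc4a2 had 34.6, 28.7 and 31.9 CPM per kb in GREEN, RED and CTL, which made it the second, the second and the first of the 8, and Ano1 had 32.6, 1.44 and 0.0937.

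The wider secretory pathway was described by 7 lists of 80 other genes, 71 of which were tested. In GREEN over RED, 20 rose and 2 fell (26 and 0 with library totals), with a median log2 fold change of -0.17. Over all genes 9.68% rose and 3.22% fell (26.2% and 0.244% with library totals). Without GREEN 4 and GREEN 5, 6 rose (Kcnk1, Kcne3, Kcnn4, Kcnma1, Slc4a3 and Ezr), where 1.59% of all genes did. Without GREEN 3 as well only Kcnn4 did (0.295%), and in experiment 2 alone Kcnn4 and Kcnma1 (0.452%). No other pathway gene passed in GREEN over RED in these 3 settings. Potassium and chloride channels and their driving force had the most calls, 7 of 12 higher (median 1.27). The potassium channel genes Kcnk1 (7.94), Kcne3 (6.25, a channel subunit), Kcnn4 (5.22) and Kcnma1 (4.75) led, and the chloride-loading cotransporter Slc12a2 rose less (1.08, adjusted p = 0.019). Kcnk1 averaged 16.8 ± 13.6 CPM in GREEN and 0.0528 ± 0.0536 CPM in RED, and Kcnn4 17.1 ± 12.9 and 0.403 ± 0.116 CPM.

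Of the anion exchangers and carbonic anhydrases 3 of 9 tested rose: the exchanger Slc4a3 (4.98, standard error 0.57, adjusted p = 0.00019) and the bicarbonate-forming enzymes Car2 (1.95) and Car9 (1.99). Slc4a3 averaged 15.4 ± 11.4 CPM in GREEN and 0.418 ± 0.309 CPM in RED, while the sodium bicarbonate cotransporter Slc4a4 had -0.48 (adjusted p = 0.4). Among 6 other aquaporins only Aqp5 rose (7.36, adjusted p = 0.0022), with 4.82 ± 4.79 CPM in GREEN and 0.0239 ± 0.0338 CPM in RED. The hepatocyte aquaporin Aqp8 had -1.04 (adjusted p = 0.15), with 59.5 ± 33.8 and 116.5 ± 56.9 CPM.

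Of receptors and of cAMP and calcium signalling genes, 5 of 21 rose. They included the inositol trisphosphate receptor Itpr3 (3.00, adjusted p = 0.0089), the calcium-permeable channels Trpv4 (2.74) and Pkd2 (1.36), and the adenylyl cyclase Adcy6 (0.99, adjusted p = 0.0044). Among 6 apical anchoring genes Ezr, the gene of ezrin, rose (3.80, adjusted p = 0.00082), with 88.3 ± 62.9 CPM in GREEN and 5.82 ± 2.50 CPM in RED. Rab11fip5 also rose (1.57), and Pdzk1, a scaffold protein, fell (-0.81, adjusted p = 0.045). With library totals Pdzk1 no longer passed.

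Of the solute transporters of bile ducts 2 of 7 rose, the glucose transporter Slc2a1 (1.12) and the peptide transporter Slc15a2 (1.91, adjusted p = 0.049). Slc51a, a subunit of the basolateral bile acid exporter, was too low to be tested, at 0.150 ± 0.195 CPM in GREEN and 0.0990 ± 0.0956 CPM in RED. Of 10 hepatocyte bile secretion genes none rose and 1 fell (median -0.92), the bile acid uptake carrier Slc10a1 (-0.99, adjusted p = 0.037; no longer past with library totals). It averaged 145.4 ± 47.5 CPM in GREEN and 299.2 ± 115.9 CPM in RED.

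**Figure D4:**
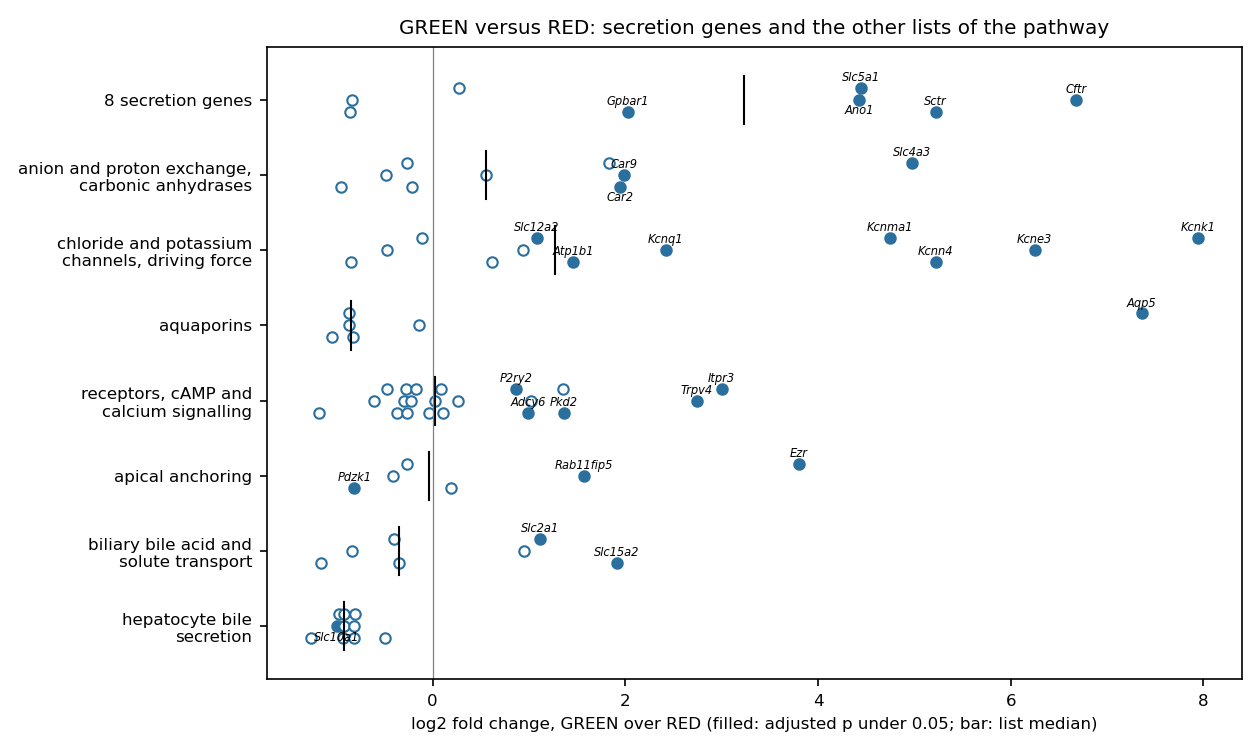
Log2 fold changes of GREEN over RED for the 8 secretion genes and the 71 tested genes of the 7 pathway lists, 1 point per gene, filled and named where the adjusted p is under 0.05. Bars are list medians. The 8 secretion genes have a median of 3.23 and the channel list 1.27, while the hepatocyte bile secretion list has -0.92.

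Against healthy liver genes of the same lists differed in both directions. In RED over CTL 11 of the 71 (15.5%) rose and 4 (5.63%) fell, near the 14.2% higher over all genes and above the 1.99% lower (14 and 2 genes with library totals, beside 17.2% and 0.58%). In GREEN over CTL 29 (40.8%) rose and 23 (32.4%) fell, beside 29.5% and 18.6% (38 and 9 genes with library totals, beside 61.5% and 2.85%). There 8 channel genes rose and 2 fell (median 1.94), and of the hepatocyte bile secretion genes 7 of 10 fell and none rose (4 fell with library totals). The 12 hepatocyte markers had 10 lower in GREEN over CTL (5 with library totals).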

How the data were processed

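RNA-seq of 19 libraries from 15 mouse hepatocyte samples was used. The authors deposited estimated counts per gene for each experiment, not normalized. Per the submitters' processing notes these came from kallisto 0.43.1 with GRCm38, and the annotation release and the summing of transcripts are not stated in what was used here. Per the labels' protocols, 150 ng of total RNA went into each library, with TruSeq Stranded mRNA in experiment 1 (10 libraries) and KAPA HyperPrep RiboErase in experiment 2 (9 libraries). Of the values, 40.6% were not whole (off by more than 1e-6), and they were rounded. Pseudo-alignment can split reads among near-identical sequences, and pseudogenes lie within Cftr and Slc5a1.

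Symbols, positions and exon lengths came from GENCODE M21 (99.0% of identifiers found), and promoters from RefSeq (GRCm38.p6, 250 bases before each start). Each sample entered with 1 library, that of experiment 2 for CTL 5, RED 2, RED 3 and RED 4. Genes were filtered with filterByExpr (16387 kept), scaled by TMM and fitted on group and experiment over the 15 libraries. The edgeR 4.0.16 quasi-likelihood test (F statistic, R 4.3.3) gave every p not credited to another tool, with Benjamini-Hochberg adjustment over all genes tested and a threshold of 0.05. The standard error is the absolute log2 fold change divided by the square root of F, and 95% intervals are normal. Alternatives included limma-voom (limma 3.58.1) and DESeq2 1.42.0. The fit was tested on simulated data.

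The 8 genes, the pathway and marker lists and the tests were chosen with earlier results of these data known. Named pathway genes are those past the threshold in GREEN over RED, up to 4 per list by absolute log2 fold change, plus Slc12a2, Itpr3, Slc4a4, Slc51a, Aqp8, Slc10a1 and Ezr. The biliary sum without Spp1, the list counts without GREEN libraries, and the levels per kilobase and fold bounds without single libraries or within an experiment were added after the data were seen. Spread, in every p-value, is that between samples labelled as biological replicates. Counts limit precision most for Gpbar1, Sctr and Cftr in RED and CTL, and a CPM of 0 means only that no count was found. Some values of single marker genes are not reported here.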

Additional observations from a re-analysis of the deposited data

Results flagged for a closer look

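Of 20 sets of 5 libraries examined, 3 held a library whose gap to its nearest neighbour, divided by the range of the set, was above Dixon's 95% limit of 0.71 for 5 samples. Chance alone marks about 1 in 20 such sets if values are normally distributed, which was not tested. The rule was applied to CPM and not to log CPM, so a high library in a skewed set is marked more readily. Aqp1 had 957.1 CPM in RED 5 (gap over range 0.821). That library was also highest for the summed endothelial and macrophage markers, and among RED for the stellate cell and matrix markers. It was made with the poly(A) kit, as was RED 1, which had 133.7 CPM. Aqp1 had 334.1 CPM in GREEN 4 (0.764), a library of the poly(A) kit, which gave higher Aqp1 values for the 4 samples sequenced with both kits. GREEN 5, of the same kit, had 120.8 CPM, below GREEN 3 of the other kit with 133.8 CPM. The part of the kit in the RED 5 and GREEN 4 values was not tested. Slc4a2 had 47.1 CPM in CTL 5 (0.765), in a set whose whole range was 44.4 to 47.1 CPM.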

How the results depend on the processing

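The 8 log2 fold changes were recomputed under other scalings, filters, tools and library choices, and without each of the 15 samples in turn. No past-threshold value changed sign. GREEN over RED had 5 genes past the threshold, 4 to 6 without 1 sample and 0 in experiment 2 alone. It had 1 when GREEN 4 and GREEN 5 were left out, and 0 when GREEN 3 was left out as well (both chosen after seeing the data). By edgeR, 5, 5 and 4 genes had an unadjusted p under 0.05 in these 3 settings. RED over CTL had 2 genes, 2 to 4 without 1 sample (4 without CTL 2), 4 with DESeq2, 1 with limma-voom and 1 in experiment 2 alone. Over all genes that comparison had 2652 calls, 2131 to 3267 without 1 sample, 3544 with DESeq2, 2239 with limma-voom and 1207 in experiment 2 alone. The cause of the shifts between settings was not tested, and the subsets also held fewer libraries. In limma-voom and in experiment 2 alone, Ano1 had adjusted p of 0.083 and 0.068 in RED over CTL. GREEN over CTL had 6 genes without any 1 sample and 7 with library totals, where Slc4a2 also passed. Over all genes 6710 to 8446 passed there without 1 sample. With library totals 64.3% of all genes passed (61.5% higher), against 48.1% with TMM.

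A replicate block by the numbers in the titles left 5, 2 and 6 genes past the threshold, with 1799, 2397 and 7582 calls over the 16387 genes. A block by the code numbers in the library names, in RED and GREEN only, left 4 in GREEN over RED, without Gpbar1 (log2 fold change 1.84, adjusted p = 0.055), against 5 in the same libraries without the block, and 4 in experiment 2 alone. Over all genes these 3 fits had 914, 1283 and 857 calls, and the last was added after the data were seen. Deviations from the group mean correlated at 0.577, 0.398, 0.78, 0.435 and -0.223 between GREEN 1 to GREEN 5 and the RED library of their code, so the numbers were not taken to pair all samples. Of the 5, 1 correlated best with that library, and GREEN 1, GREEN 2 and GREEN 4 came close (best 0.578, 0.43 and 0.449). Within experiment 2 the 3 code pairs had 0.398 to 0.78 and the 6 other pairs -0.618 to -0.101, a hint of pairing there from the data and not from the labels. Over all genes, GREEN over RED had 2114 calls. There were 866 without GREEN 3, 904 without GREEN 4, 912 without GREEN 5, 896 without RED 1, 1396 without RED 5 and 3515 without GREEN 1, with 77 in experiment 2 alone, 5351 in experiment 1 alone and 3822 with DESeq2.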

Other observations

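Sample pairs from the same animal are not marked in the labels, but 4 samples had a library in both experiments. In RED samples Slc5a1 differed little between them, with an experiment 2 value of 0.92, 1.04 and 1.00 times that of experiment 1 in RED 2, RED 3 and RED 4. In CTL 5 it had 0.688 CPM in experiment 2 and 0.335 CPM in experiment 1, from 24 and 7 counts. Ano1 had 1.10, 0.82 and 1.32 times in the same RED samples, with 6 and 9 counts in CTL 5, and Slc10a2 had 0.93, 0.68, 0.73 and 0.84 times in RED 2, RED 3, RED 4 and CTL 5. Gpbar1 had no count in any experiment 1 library of these samples and 3, 8, 5 and 1 counts in the experiment 2 libraries. Sctr had no count in the 3 RED experiment 1 libraries and 1 count in that of CTL 5, so its absence from CTL in the 15 libraries holds only for the libraries chosen.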
